A study of Mus musculus with 8 samples.

Results

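The genes described here encode secreted proteins of inflammation, measured in mouse lung tumours: the acute phase genes Orm1, Saa3, Lcn2, Hp, Cp and Lrg1 and the complement genes C3, Hc and Cfb. They are 9 of the 52459 gene symbols of the count table and were taken from it by symbol. The set was put together with earlier results of these treatment comparisons known, so the fold changes and adjusted p-values of the 9 genes below are a description and support nothing beyond their own values. Of the 9, 8 had enough reads to be tested, as had 14085 symbols in all, and Cfb, with 17 reads over all libraries, is given by its counts.

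RNA came from tumour nodules of the lung in KrasTrp53 mice, an engineered mouse model of lung cancer kept on a mixed background, and every group shared this genotype. The 4 groups held 2 libraries each, from mice given vehicle, the drug JQ1, an antibody against PD-1, or both agents, called the combination below. JQ1 keeps BET bromodomain proteins off acetylated histones, and the antibody blocks a receptor that restrains T cells. The alleles, the cells in which they act, the age of the mice, the doses, the duration and the number of animals behind a library are not stated in the labels. Libraries were made by capture of coding sequence with probes from whole nodules, so tumour cells, other lung cells and immune cells were measured together, and fewer cells of a type and less RNA per cell cannot be told apart. Capture can miss a gene or take it up poorly, so few or no reads do not show that its RNA was absent.

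The acute phase response is the change in plasma proteins that follows injury, infection or a tumour. Interleukin 6 and related cytokines signal through receptors that share gp130 to STAT3, interleukin 1 and TNF signal to NF-kB, and C/EBP factors act with both on acute phase promoters, mainly in the liver but also in lung epithelium. Complement is the linked protease cascade in which C3 is cleaved by convertases, of which the alternative pathway form contains factor B, and C5, encoded in the mouse by Hc, starts the terminal pathway.

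The smallest library was combination replicate 1 with 2719816 reads in all, and the largest was vehicle replicate 2 with 15224108. Levels are given as CPM, the count scaled to a fixed library total after correction by the TMM factor of edgeR, which equalises libraries on the bulk of genes. Reads of ribosomal RNA genes took 25.2% to 27.1% of the counts in the vehicle libraries, 27.3% to 27.7% with anti-PD-1, 31.4% to 39.8% with JQ1 and 51.6% to 60.8% in the combination. The set counted here held the genes annotated as ribosomal RNA and also Gm42418 and Lars2. Sex, read from Xist and from genes of the Y chromosome, was female for 1 library each of JQ1 (replicate 1), anti-PD-1 (replicate 2) and the combination (replicate 1), and male for the other 5. The summed level of 11 alveolar type 2 markers, genes of the surfactant-making cells of the lung, was 6575 to 12209 CPM with no marker at 0 in any library.

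Orm1 lies in a family of close copies, and the sequences show how far reads can be assigned to one member. The coding sequences of Orm1 and Orm2 have 621 bases and are 89.9% identical, and Orm1 and Orm3 are 86.4% identical over 618 bases, read from the GENCODE vM21 transcripts on GRCm38. A stretch of 104 coding bases is shown because Orm1 and Orm2 do not differ in it, while Orm3 differs at the 3 bases in capitals. It starts at coding base 442 in Orm1 and Orm2 and at 439 in Orm3.
Orm1: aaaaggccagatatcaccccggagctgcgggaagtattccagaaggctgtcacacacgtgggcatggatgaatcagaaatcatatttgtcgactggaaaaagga
Orm2: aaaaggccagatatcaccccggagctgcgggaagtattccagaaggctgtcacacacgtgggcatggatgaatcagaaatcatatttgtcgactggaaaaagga
Orm3: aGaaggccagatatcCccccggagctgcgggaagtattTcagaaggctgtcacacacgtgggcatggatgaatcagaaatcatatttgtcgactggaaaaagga
Over all exons, 20.4% of the 50-base words of Orm1 also occur in Orm2 and 2.20% in Orm3. A read from such a word cannot be placed in one gene, so the Orm1 values below are uncertain to the extent that reads were shared or dropped, and the family sum is given beside them.

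Orm1 encodes orosomucoid 1, an acute phase glycoprotein of the lipocalin family, and lies at chr4:63344560-63348163 on the plus strand of GRCm38. Its level was 5.79 and 1.60 CPM in vehicle replicates 1 and 2, 3.77 and 4.26 CPM with JQ1, 1.81 and 1.5 CPM with anti-PD-1, and 8.40 and 43.3 CPM in the combination. Both combination libraries stood above the other 6, and replicate 2 stood far above replicate 1. Combination replicate 1 held only 20 Orm1 reads, against 76 in vehicle replicate 1, the next highest library. The order of these 2 libraries is therefore uncertain. Orm1 rose in the combination against anti-PD-1, by 3.99 on the log2 scale (SE 0.83, adjusted p = 0.0405 by edgeR's quasi-likelihood test), a fitted 15.8-fold difference. It was the 1 member called there, where 4.23% of all tested genes were called in either direction.

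The Orm1 call was not kept in every fit. It was lost without combination replicate 2 (log2 fold change 2.30, adjusted p = 0.160), without anti-PD-1 replicate 1 (4.12, adjusted p = 0.180), without anti-PD-1 replicate 2 (3.85, adjusted p = 0.173) and without vehicle replicate 2 (3.97, adjusted p = 0.0515). It was also lost in a fit of the 4 libraries compared (3.97, adjusted p = 0.0556) and with a term for sex (3.75, adjusted p = 0.0509). The direction stayed the same in all 14 alternatives tried. With ribosomal RNA genes removed the log2 fold change was 3.95 (adjusted p = 0.0408).

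Against vehicle, Orm1 differed in the combination by 2.85 on the log2 scale (SE 0.77, adjusted p = 0.0634), and against JQ1 by 2.72 (SE 0.77, adjusted p = 0.196). With JQ1 alone against vehicle the log2 fold change was 0.14 (SE 0.75, adjusted p = 0.955), and with anti-PD-1 alone it was -1.13 (SE 0.79, adjusted p = 1). Without combination replicate 2 the combination differed from vehicle by 1.17 and from JQ1 by 1.04. The value with JQ1 alone was -0.53 without vehicle replicate 2 and 1.31 without vehicle replicate 1, and that with anti-PD-1 alone was 0.05 without vehicle replicate 1, so both directions turned on a vehicle library. These comparisons share libraries, so they are set side by side only. The interaction term, which asks whether the effect of JQ1 differed between mice with and without the antibody, was 3.85 for Orm1 (SE 1.10, adjusted p = 0.745) and 2.17 without combination replicate 2, and it was called for no member and for 0% of all genes.

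The family sum followed Orm1. Orm1, Orm2 and Orm3 together had 10.1 and 2.75 CPM in vehicle, 7.12 and 6.61 CPM with JQ1, 3.35 and 3.28 CPM with anti-PD-1, and 15.1 and 75.8 CPM in the combination. Orm1 made up 45.7% to 64.5% of these reads in the 8 libraries. Orm3, another orosomucoid copy, had 30.1 CPM in combination replicate 2 and 0.838 to 5.04 CPM in the other 7 libraries. Orm2 was scarce, at 0 to 24 counts per library, and rose with JQ1 averaged over both backgrounds by 3.42 on the log2 scale (SE 0.81, adjusted p = 0.0356). That call was lost without any 1 library other than JQ1 replicate 2 and combination replicate 1, with adjusted p-values of 0.0750 to 0.131, while the log2 fold change lay between 2.55 and 4.84 in the alternatives tried. DESeq2 gave a log2 fold change of 3.49 for Orm2 and no adjusted p.

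**Figure D1:**
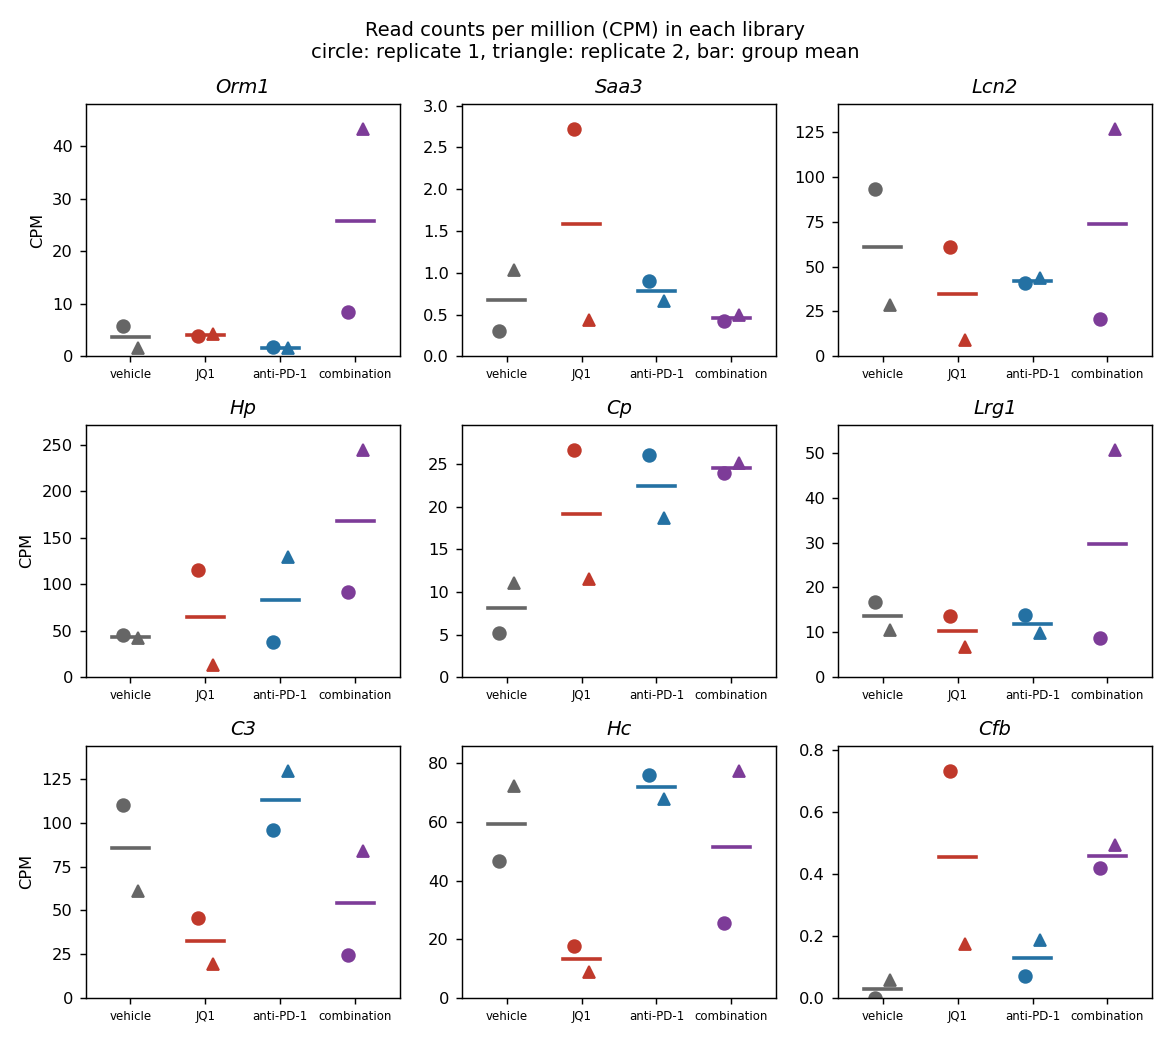
Level of each of the 9 genes in CPM (vertical axis, linear from 0, scaled per gene) in the 4 treatment groups, with a circle for replicate 1, a triangle for replicate 2 and a bar for the group mean. Combination replicate 2 is the highest library for Orm1, Lcn2, Hp, Lrg1 and Hc, and the 2 JQ1 libraries are the lowest for Hc.

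Hp, haptoglobin, binds free haemoglobin and lies at chr8:109575128-109579172 on the minus strand. It had the highest level per kilobase of exon of the 9 genes, 55.9 CPM per kilobase as a mean over the 8 libraries. Its level was 44.9 and 41.6 CPM in vehicle, 115 and 13.6 CPM with JQ1, 38.1 and 128.8 CPM with anti-PD-1, and 91.6 and 244 CPM in the combination. The combination did not overlap vehicle, whereas the JQ1 libraries differed from each other 8.48-fold and lay on either side of both vehicle libraries. The log2 fold change of the combination against vehicle was 1.96 (SE 1.01, adjusted p = 0.254), and it was 1.06 without combination replicate 2.

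Cp, ceruloplasmin, is the copper-carrying ferroxidase of plasma and lies at chr3:19957054-20009145 on the plus strand, where 108 of its exonic bases overlap the antisense gene Hps3. Its level was 5.18 and 11.1 CPM in vehicle, 26.7 and 11.6 CPM with JQ1, 26.2 and 18.7 CPM with anti-PD-1, and 24.0 and 25.2 CPM in the combination. All 6 treated libraries stood above both vehicle libraries, though JQ1 replicate 2 did so by a small margin. The log2 fold change against vehicle was 1.23 with JQ1 (SE 0.47, adjusted p = 0.452), 1.46 with anti-PD-1 (SE 0.47, adjusted p = 1) and 1.59 in the combination (SE 0.48, adjusted p = 0.0754). Cp was the member whose combination libraries agreed most closely, with a ratio of 1.05 between them, and its log2 fold change without combination replicate 2 was 1.53. The 3 comparisons share the vehicle libraries, and without vehicle replicate 1 the values were 0.78 with JQ1, 1.02 with anti-PD-1 and 1.13 in the combination. The value with JQ1 was 0.50 without JQ1 replicate 1, the higher of that pair.

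Lcn2, lipocalin 2, binds bacterial siderophores and so withholds iron, and lies at chr2:32384633-32388252 on the minus strand. Its level was 93.1 and 28.8 CPM in vehicle, 60.9 and 8.79 CPM with JQ1, 40.7 and 43.6 CPM with anti-PD-1, and 21.0 and 127 CPM in the combination. Every pair of groups overlapped, and the 2 combination libraries lay at the opposite ends of most of the range, 6.03-fold apart. Its log2 fold change in the combination against vehicle was 0.30 (SE 1.05, adjusted p = 0.875) with all libraries and -1.56 without combination replicate 2, which turned the direction.

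Lrg1, leucine-rich alpha-2-glycoprotein, is an acute phase protein that modulates TGF-beta signalling in endothelium, and lies at chr17:56119678-56122001 on the minus strand. Its level was 16.7 and 10.5 CPM in vehicle, 13.7 and 6.70 CPM with JQ1, 13.9 and 9.84 CPM with anti-PD-1, and 8.82 and 50.7 CPM in the combination. Combination replicate 2 stood above all other libraries and replicate 1 within the range of the rest. The log2 fold change against vehicle was 1.17 (SE 0.68, adjusted p = 0.297). It was 1.89 (adjusted p = 0.0446) without combination replicate 1 and -0.65 (adjusted p = 0.547) without replicate 2, so the direction turned on which library was kept.

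Saa3, serum amyloid A3, is the amyloid A form made outside the liver, and lies at chr7:46711998-46715700 on the minus strand. It was scarce, at 4 and 18 counts in vehicle, 26 and 5 with JQ1, 13 and 7 with anti-PD-1 and 1 and 3 in the combination. The highest library was JQ1 replicate 1 at 2.72 CPM, and the other 7 had 0.305 to 1.03 CPM. By edgeR the log2 fold change with JQ1 against vehicle was 1.18 (SE 0.94, adjusted p = 0.641). Without JQ1 replicate 1 it was -0.64, so the direction turned on that library. The summed reads of JQ1 against vehicle gave a ratio of 2.05 (95% interval 1.15 to 3.71). This interval covers counting error only, while the JQ1 libraries differed from each other 6.26-fold. The combination gave 0.657 (0.165 to 1.94), so a difference was not detectable at this depth. Saa1 and Saa2, the liver forms, had no read in any library, and neither had Crp.

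The complement members come next. C3, the central component of all complement pathways, lies at chr17:57203970-57228136 on the minus strand. Its level was 109.9 and 61.3 CPM in vehicle, 45.4 and 19.3 CPM with JQ1, 95.7 and 129.6 CPM with anti-PD-1, and 24.4 and 83.9 CPM in the combination. Both JQ1 libraries lay below both vehicle libraries, and both combination libraries lay below both anti-PD-1 libraries. The log2 fold change was -1.40 with JQ1 against vehicle (SE 0.60, adjusted p = 0.485), -1.03 in the combination against anti-PD-1 (SE 0.60, adjusted p = 0.295) and -1.22 for JQ1 averaged over both backgrounds (SE 0.43, adjusted p = 0.0973). The value against vehicle was -2.16 without JQ1 replicate 1 and -0.92 without JQ1 replicate 2. Against anti-PD-1 it was -2.24 without combination replicate 2 and -0.43 without combination replicate 1, so the size depended on the library kept while the direction did not.

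Hc encodes complement C5 and lies at chr2:34983331-35061438 on the minus strand, where 76 of its exonic bases overlap the antisense gene Gm13449. Its level was 46.6 and 72.0 CPM in vehicle, 17.8 and 8.96 CPM with JQ1, 75.7 and 67.9 CPM with anti-PD-1, and 25.6 and 77.3 CPM in the combination. The JQ1 libraries were the 2 lowest of the 8, and the combination was split, with replicate 1 near the JQ1 libraries and replicate 2 the highest of all. With JQ1 against vehicle the log2 fold change was -2.15 (SE 0.52, adjusted p = 0.435), a level 4.44-fold lower, and it lay between -2.73 and -1.75 over 14 alternatives. DESeq2, run as one of these, called it (log2 fold change -2.19, adjusted p = 0.00236).

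In the combination against JQ1, Hc differed by 1.97 on the log2 scale (SE 0.52, adjusted p = 0.166), and by 0.92 without combination replicate 2. Over both backgrounds the effect of JQ1 on Hc was -1.30 (SE 0.36, adjusted p = 0.0541), close to the threshold of 0.05. Small changes of the fit moved it across: it was called with RLE factors (-1.35, adjusted p = 0.0471), with ribosomal RNA removed (-1.33, adjusted p = 0.0498), with DESeq2 (-1.36, adjusted p = 0.00143) and without combination replicate 2 (-1.83, adjusted p = 0.0323). The interaction for Hc was 1.69 (SE 0.71, adjusted p = 0.773), so a difference in the effect of JQ1 between backgrounds was not called.

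Cfb, factor B, provides the protease of the alternative pathway convertase and lies at chr17:34856374-34862518 on the minus strand. It had 0 and 1 counts in vehicle, 7 and 2 with JQ1, 1 and 2 with anti-PD-1, and 1 and 3 in the combination. The 4 libraries with JQ1 held 13 of the 17 reads, a ratio of 6.12 to the 4 libraries without (95% interval 1.89 to 25.8), which covers counting error only. A count of 0 in vehicle replicate 1 allows a level of up to 0.229 CPM. The annotation holds the read-through gene Gm20547 on the same strand, which shares 2246 exonic bases with Cfb and was listed at 0 in every library, and reads that fit both genes may have been dropped in counting. For this reason the low level of Cfb is uncertain.

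**Figure D2:**
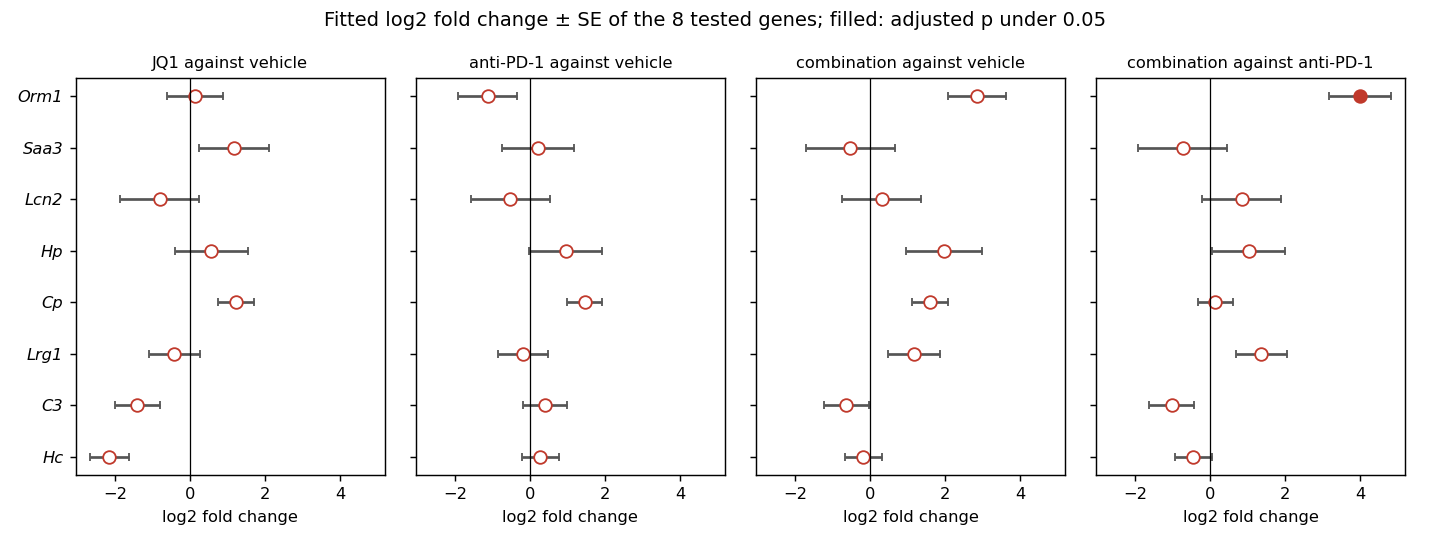
Fitted log2 fold change with its standard error (horizontal axis) for the 8 tested genes in each comparison, with filled points where the adjusted p is under 0.05. Orm1 in the combination against anti-PD-1, at 3.99, is the 1 filled point, and Hc lies at -2.15 with JQ1 against vehicle.

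Counted over the 8 tested genes, the groups did not separate more often than they did over all genes. With JQ1 against vehicle, Cp was higher and C3 and Hc were lower in both libraries, 3 of 8 genes, where 49.3% of all tested genes did not overlap. No member and 0% of all genes were called there by edgeR. An unadjusted p under 0.05 was found for 3 members and 10.1% of all genes, and Hc was called by DESeq2, which called 0.683% of the genes it gave an adjusted p. With anti-PD-1 against vehicle, Cp alone did not overlap, against 30.4% of all genes. No member and 0% of all genes were called by edgeR. DESeq2 called no member and 0.0839% of its genes, and 1 member had an unadjusted p under 0.05, against 1.98% of all genes.

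In the combination against vehicle, Orm1, Hp and Cp did not overlap and were higher, 3 of 8 genes, where 29.5% of all genes were higher without overlap and 58.5% did not overlap in either direction. edgeR called no member there but 4.8% of all genes. Of the members 2 had an unadjusted p under 0.05, as had 27.3% of all genes, and DESeq2 called Orm1 and Cp, where it called 14.4% of its genes. In the combination against JQ1, Orm1 and Hc did not overlap and were higher, where 19.7% of all genes did so and 41.1% did not overlap in either direction. There edgeR called no member and 0.0213% of all genes, and 3 members had an unadjusted p under 0.05, where 14.1% of all genes had one. DESeq2 called Orm1 and Hc in that comparison, and 3.6% of its genes. In the combination against anti-PD-1, Orm1 was higher and Saa3 and C3 lower without overlap, 3 of 8, against 54.8% of all genes, and 1 member had an unadjusted p under 0.05, against 27% of all genes. DESeq2 called Orm1 there too, and 13.8% of its genes.

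For JQ1 averaged over both backgrounds, no member separated the 4 libraries with JQ1 from the 4 without, where 19.6% of all genes did. edgeR called no member and 8.27% of all genes. DESeq2 called Orm1, C3 and Hc, where it called 18.7% of its genes, and 3 members had an unadjusted p under 0.05, where 31.6% of all genes had one. For the interaction 2 members, Orm1 and Hc, had an unadjusted p under 0.05 against 6.25% of all genes, and DESeq2 called none of the members and 0.179% of its genes. The median log2 fold change of the 8 genes was 0.73 in the combination against vehicle, where all tested genes had 0.07, and -0.14 with JQ1 against vehicle, where they had 0.06. The members did not move as a block: 5 of 8 fitted values were above 0 in the combination against vehicle, where 52.4% of all genes were, and 4 of 8 with JQ1 against vehicle, where 53.8% were.

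The libraries of a group differed more in these genes than in the median gene. In the combination the higher library exceeded the lower by a median of 3.23-fold over the 8 genes, from 1.05 for Cp to 6.03 for Lcn2, and 5 of the 8 differed at least 3-fold. Among the 9058 genes with at least 10 reads in both combination libraries, the median was 1.40-fold and 4.73% differed at least 3-fold. The 8 members were not held to this count, and Saa3, with 1 and 3 reads there, did not reach it in any group. In the JQ1 group the median over the 8 genes was 2.33-fold, with Hp at 8.48, against 1.32-fold over all genes with such counts. The vehicle libraries had a median of 1.96-fold over the 8 genes and the anti-PD-1 libraries 1.37-fold, against 1.22 and 1.29 over all genes with such counts.

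A pair of libraries stood at the ends of the range for most members. Combination replicate 2 was the highest library for Orm1, Lcn2, Hp, Lrg1 and Hc, and JQ1 replicate 2 was the lowest for Lcn2, Hp, Lrg1, C3 and Hc. JQ1 replicate 1 was the highest for Saa3, Cp and Cfb. Anti-PD-1 replicate 2 was the highest for C3 and the lowest for Orm1, so the extremes were not the same library throughout. Summed over the 9 genes, the level was 322.5 and 228 CPM in vehicle, 287 and 73.8 CPM with JQ1, 293 and 400.7 CPM with anti-PD-1, and 205 and 652 CPM in the combination.

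**Figure D3:**
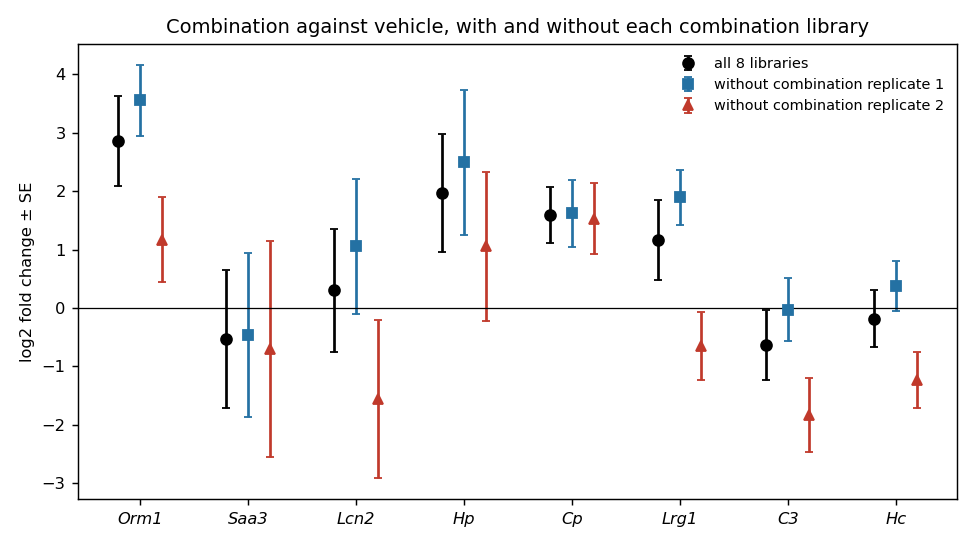
Log2 fold change of the combination against vehicle with its standard error (vertical axis) for the 8 tested genes, with all libraries and without each combination library in turn. Cp moves little, from 1.59 to 1.53 without replicate 2, while Lcn2 and Lrg1 fall below 0 without replicate 2.

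Across the 8 libraries the members formed loose pairs, given here as a description over samples that share groups and depth. Of the 28 pairs of tested genes, 21 had a Pearson correlation of log2(CPM + 0.5) above 0 and 5 had one of at least 0.7. The closest pair was Lcn2 and Lrg1 (r = 0.850), then C3 and Hc (r = 0.841), and the most opposed was Orm1 and Saa3 (r = -0.348). The genes of the whole table closest to the members by this measure were Tkt and Tmbim4 for Orm1 (r = 0.981 and 0.972), Mon2 and Senp3 for Hp (0.982 and 0.966), and Smim3 and Snx10 for Lrg1 (0.985 and 0.980). Cd14, the co-receptor for bacterial lipopolysaccharide, was nearest to Lcn2 (0.952), followed by Cdc34 (0.944). The terminal complement gene C7 was nearest to Cp (0.970), followed by CT025653.1 (0.963). Ryr1 and Cpeb3 were nearest to C3 (0.968 and 0.959), Fam105a and Npr1 to Hc (0.970 and 0.968), and Adcy8 and Zfp511 to Saa3 (0.935 and 0.914).

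Levels per kilobase of exon set the genes side by side. The length counts all exons, whereas capture was of coding sequence and may differ between genes. The order is therefore one of captured reads and not of transcript levels. After Hp at 55.9 CPM per kilobase came Lcn2 at 20.2, C3 at 13.8, Lrg1 at 11.6, Orm1 at 11.4, Hc at 7.82, Cp at 1.94, Saa3 at 0.334 and Cfb at 0.0945, each a mean over 8 libraries. The ranges of neighbours in this order overlapped: Hp spanned 8.45 to 152 CPM per kilobase and Lcn2 3.35 to 48.3. Lrg1 and Orm1, with means that are nearly equal, spanned 4.76 to 36.0 and 1.94 to 55.8.

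The promoters of C3 and Hc are shown because both genes were lower with JQ1. Those of the Orm copies are shown because Orm1 and Orm3 were highest in combination replicate 2. Orm2 is shown as a member of the same family. Its log2 fold change in the combination against JQ1 was 0.55, and those groups overlapped. Each is the 250 bases before the RefSeq start site on GRCm38.p6, read in the direction of the gene, with matches to the C/EBP word TTNNGNAA on either strand in capitals.
C3: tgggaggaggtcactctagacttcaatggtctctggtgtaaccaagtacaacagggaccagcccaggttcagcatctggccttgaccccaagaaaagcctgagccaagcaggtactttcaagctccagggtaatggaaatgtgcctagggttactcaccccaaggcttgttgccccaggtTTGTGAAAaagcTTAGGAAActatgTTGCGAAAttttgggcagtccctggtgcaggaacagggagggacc
Hc: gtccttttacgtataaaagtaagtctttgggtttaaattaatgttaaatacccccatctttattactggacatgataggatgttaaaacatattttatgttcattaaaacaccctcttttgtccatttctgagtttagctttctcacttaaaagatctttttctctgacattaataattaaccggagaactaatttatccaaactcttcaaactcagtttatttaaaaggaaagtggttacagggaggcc
Orm2: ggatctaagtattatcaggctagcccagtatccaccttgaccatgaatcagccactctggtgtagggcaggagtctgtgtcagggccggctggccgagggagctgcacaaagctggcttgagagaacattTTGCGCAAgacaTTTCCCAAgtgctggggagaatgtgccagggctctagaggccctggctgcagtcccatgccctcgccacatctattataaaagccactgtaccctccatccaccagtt
Orm3: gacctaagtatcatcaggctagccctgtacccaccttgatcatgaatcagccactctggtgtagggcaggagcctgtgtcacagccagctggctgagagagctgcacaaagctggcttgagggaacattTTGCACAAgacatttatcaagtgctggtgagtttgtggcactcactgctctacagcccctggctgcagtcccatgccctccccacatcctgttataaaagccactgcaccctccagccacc
They lie at chr17:57228137-57228386 on the minus strand (C3), chr2:35061413-35061662 on the minus strand (Hc), chr4:63362199-63362448 on the plus strand (Orm2) and chr4:63355908-63356157 on the plus strand (Orm3). C3 held 3 matches within the last 70 bases before its start, Orm2 held 2 and Orm3 1, and the Hc window held none. Among the other members, Saa3 held 4 and Lcn2 1, Cp held 1 in each of its 2 listed windows, and Lrg1 held none. The word was present in 36.9% of the 32841 windows of this length in the table, so a match is common. The STAT word TTCNNNGAA, present in 7.02% of windows, and the NF-kB consensus, present in 5.0%, were found in no member's window, which says only that these letters are not in these windows. Orm1, Hp and Cfb were not among the windows used.

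Other genes of the acute phase response were read beside the members from lists chosen by function, with earlier results of these data known. Of 22 further acute phase genes, 9 were tested. None of the 9 was called by edgeR in the combination against vehicle, where 4.8% of all genes were. An unadjusted p under 0.05 was found for 4, against 27.3% of all genes. DESeq2 called Orm3 and Mt2, where it called 14.4% of its genes. All 9 fitted values were above 0, where 52.4% of all genes were. Their median was 1.55 where all tested genes had 0.07. Of the 9, 3 were higher without overlap, where 29.5% of all genes were. The summed level of the 22 genes was 69.2 and 68.0 CPM in vehicle. It was 64.3 CPM in combination replicate 1 and 375 CPM in replicate 2, so the rise of the sum rested on replicate 2. The 4 with the smallest p were Orm3 (log2 fold change 2.93, SE 0.89, adjusted p = 0.0847), the metallothionein Mt2 (1.55, SE 0.54, adjusted p = 0.112), Orm2 (2.80, SE 1.06, adjusted p = 0.128) and the protease inhibitor Serpina3n (1.54, SE 0.62, adjusted p = 0.153). Serpina3n had 3.89 and 9.91 CPM in vehicle and 7.98 and 31.1 CPM in the combination, so these groups overlapped, as combination replicate 1 lay between the vehicle libraries.

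The cytokines that induce acute phase genes, with their receptors and signalling genes, were a list of 25, of which 19 were tested. Of these edgeR called 3 higher and none lower in the combination against vehicle, where 2.44% of all genes rose and 2.36% fell, and the median was 0.48. All 3 were receptor chains. DESeq2, which called 14.4% of its genes there, called the same 3 higher and also Cebpa, a C/EBP factor, lower (log2 fold change -1.19, adjusted p = 0.0199). In edgeR Cebpa was at -1.13 (SE 0.37, adjusted p = 0.0905). Lifr, the receptor of leukaemia inhibitory factor that pairs with gp130, had 7.85 and 9.57 CPM in vehicle and 65.1 and 57.1 CPM in the combination, and rose by 2.81 on the log2 scale (SE 0.46, adjusted p = 0.0212). With JQ1 alone it had 20.3 and 8.52 CPM and with anti-PD-1 13.7 and 26.1 CPM, so both combination libraries stood above the other 6. Il6ra, the ligand-binding chain of the interleukin 6 receptor, had 5.72 and 4.75 CPM in vehicle, 7.33 and 13.1 CPM with JQ1, 4.81 and 7.5 CPM with anti-PD-1, and 16.0 and 28.5 CPM in the combination. It rose by 2.10 (SE 0.45, adjusted p = 0.0347), and its combination libraries also stood above the other 6.

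Il22ra1, the epithelial receptor chain of interleukin 22, had 1.07 and 0.974 CPM in vehicle, 2.51 and 2.87 CPM with JQ1, 0.767 and 0.562 CPM with anti-PD-1, and 3.78 and 5.76 CPM in the combination. All 4 libraries with JQ1 stood above all 4 without, and it rose in the combination against vehicle (2.25, SE 0.54, adjusted p = 0.0432), in the combination against anti-PD-1 (2.84, SE 0.56, adjusted p = 0.0363) and with JQ1 over both backgrounds (2.12, SE 0.38, adjusted p = 0.0202). Il6ra rose in the combination against anti-PD-1 (1.87, SE 0.45, adjusted p = 0.0469) and with JQ1 over both backgrounds (1.42, SE 0.31, adjusted p = 0.0304). Lifr (1.17, SE 0.31, adjusted p = 0.0468) and the TNF receptor gene Tnfrsf1a (0.93, SE 0.21, adjusted p = 0.0306) also rose with JQ1 over both backgrounds, which made 4 of the 19 genes, where 4.22% of all genes rose. These comparisons share libraries.

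edgeR called none of the 19 lower with JQ1 over both backgrounds, where 4.05% of all genes fell. DESeq2 called 4 lower beside the same 4 higher, where it called 18.7% of its genes in either direction. Cebpa was at -0.82 in edgeR (SE 0.26, adjusted p = 0.0698), the C/EBP factor gene Cebpb at -0.74 (SE 0.28, adjusted p = 0.107), the interleukin 17 receptor chain Il17ra at -0.96 (SE 0.29, adjusted p = 0.0646) and the kinase gene Jak1 at -0.55 (SE 0.19, adjusted p = 0.0818). Cebpa had 942 and 542 CPM in vehicle, 732 and 398 CPM with JQ1, 678 and 937 CPM with anti-PD-1 and 374 and 305 CPM in the combination, so JQ1 alone overlapped vehicle and both combination libraries lay below the other 6.

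The receptor calls were lost in several fits that left out 1 library, although their sizes moved little in most. Some were also lost in other alternatives. Over all alternatives, Lifr was called in 3 of 13 over both backgrounds, and Il22ra1 in 5 of 14 for the combination against vehicle. Il22ra1 and Il6ra were each called in 7 of 14 for the combination against anti-PD-1. Over these and the other alternatives the log2 fold change of Il22ra1 lay between 1.92 and 2.23 over both backgrounds and between 2.45 and 3.08 against anti-PD-1, that of Tnfrsf1a between 0.87 and 0.97, and that of Il6ra between 1.58 and 2.44 against vehicle. The widest relative range was that of Lifr over both backgrounds, from 0.77 without JQ1 replicate 1 to 1.43. With vehicle replicate 1, vehicle replicate 2 or combination replicate 2 left out, none of the 3 was called in the combination against vehicle, with adjusted p-values from 0.0774 for Lifr to 0.259 for Il22ra1. Il22ra1 was called there without combination replicate 1 and lost without any other library, and Il6ra was also lost without anti-PD-1 replicate 2 (log2 fold change 2.09, with an adjusted p just above the threshold). Lifr had a log2 fold change of 2.65 without vehicle replicate 1, 2.94 without vehicle replicate 2 and 2.88 without combination replicate 2, so its size hardly moved. Against anti-PD-1, both calls were lost without either vehicle library, either anti-PD-1 library or combination replicate 2, with adjusted p-values of 0.0723 to 0.208. Over both backgrounds, all 4 calls were lost without either vehicle or either anti-PD-1 library (0.0603 to 0.167). Among the fits that left out 1 library, Lifr was called there only in the one without JQ1 replicate 2. Il22ra1 and Il6ra were also lost without combination replicate 2 (0.0517 and 0.0742), Il6ra without JQ1 replicate 2 (0.0690) and Tnfrsf1a without either JQ1 library (0.0633 and 0.0644), and the direction stayed the same throughout. The cytokine genes were scarce: Il6 had 2 reads in all, both in anti-PD-1 replicate 2, and Il1b had 0 and 1 reads in the combination and 5 to 20 in each other library. Osmr, the oncostatin M receptor, was at 1.14 in the combination against vehicle (SE 0.34, adjusted p = 0.0718).

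Among 19 genes of the classical and lectin pathways, which feed into C3 cleavage, 12 were tested. Neither edgeR nor DESeq2 called any in the combination against vehicle, where edgeR called 4.8% of all genes and DESeq2 14.4% of its genes. None had an unadjusted p under 0.05, against 27.3% of all genes, and their median was 0.42. The thioester protein C4b, which was nearest to the threshold, had 7.85 and 14.2 CPM in vehicle, 12.4 and 7.48 CPM with JQ1, 52.0 and 30.4 CPM with anti-PD-1 and 8.82 and 48.7 CPM in the combination, and the JQ1 libraries and combination replicate 1 were the lowest of the treated ones, as they were for C3 and Hc. Its log2 fold change in the combination against vehicle was 1.42 (SE 0.69, adjusted p = 0.220). C1qc (1.08, SE 0.56, adjusted p = 0.239) and C1qa (0.96, SE 0.52, adjusted p = 0.259) encode chains of the recognition protein C1q, and the lectin pathway protease gene Masp1 was at -1.62 (SE 1.19, adjusted p = 0.398).

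Of 8 other genes of the alternative and terminal pathways, 3 were tested, and their values pointed both ways. Neither edgeR nor DESeq2 called any in the combination against vehicle, where edgeR called 4.8% of all genes and DESeq2 14.4% of its genes. C7 had an unadjusted p under 0.05, as had 27.3% of all genes. C7 was at 2.04 (SE 0.91, adjusted p = 0.181) and C6 at -1.40 (SE 0.79, adjusted p = 0.280), although both proteins join the same membrane attack complex after C5. Cfp, which encodes the convertase stabiliser properdin, was at -0.91 (SE 0.59, adjusted p = 0.337). C6 had 10.1 and 10.5 CPM in vehicle, 3.66 and 0.609 CPM with JQ1, 6.90 and 18.7 CPM with anti-PD-1 and 1.68 and 5.43 CPM in the combination. All 4 libraries with JQ1 had less C6 than all 4 without, and its log2 fold change over both backgrounds was -2.00 (adjusted p = 0.0575 by edgeR), while DESeq2 called it. Cfd, which encodes the protease that cleaves factor B, had no read in any library.

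Complement regulators, which limit the cascade on host cells, were a list of 14 with 8 tested. Of the 8 values 7 were above 0 in the combination against vehicle, where 52.4% of all genes were, with a median of 1.31. None was called by edgeR, against 4.8% of all genes. DESeq2 called 1, where it called 14.4% of its genes. In edgeR the unadjusted p of 3 was below 0.05, as was that of 27.3% of all genes. Cr1l, a membrane regulator of C3, was at 1.20 (SE 0.38, adjusted p = 0.0862) and Cd55, which dissociates convertases, at 1.43 (SE 0.58, adjusted p = 0.155). Cd46, a cofactor for C3b cleavage, was at 1.93 (SE 0.89, adjusted p = 0.188). The shift above 0 was not particular to the combination. Of the 8 regulators, 7 were also above 0 with JQ1 alone against vehicle (median 1.18), and 7 with anti-PD-1 alone against vehicle. In the combination against JQ1, 5 of the 8 were above 0, with a median of 0.08. The comparisons with vehicle share the vehicle libraries.

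Of 8 complement receptors 6 were tested, and edgeR and DESeq2 called none in the combination against vehicle. There edgeR called 4.8% of all genes and DESeq2 14.4% of its genes. Of the receptors 1 had an unadjusted p under 0.05, against 27.3% of all genes. The receptor of the C5 fragment C5a, C5ar1, was at 1.77 (SE 0.61, adjusted p = 0.102), and the median was -0.32. The other C5a receptor gene C5ar2 was at -1.72 (adjusted p = 0.335), and the integrin chains of the C3 fragment receptors were at 1.01 for Itgam (adjusted p = 0.326) and -0.93 for Itgax (adjusted p = 0.322). Of 12 partners in iron and haem handling, which bear on the roles of Hp, Cp and Lcn2, 11 were tested and edgeR called none. An unadjusted p under 0.05 was found for 1, the ferritin light chain gene Ftl1 (1.12, SE 0.33, adjusted p = 0.0708), which DESeq2 called. The shares over all genes were those given for the receptors. The lipocalin 2 receptor gene Slc22a17 was at -0.73 (adjusted p = 0.216), the lactoferrin gene Ltf at 3.17 (adjusted p = 0.233) and the iron exporter gene Slc40a1 at 1.21 (adjusted p = 0.360). The median of that list was 0.24.

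**Figure D4:**
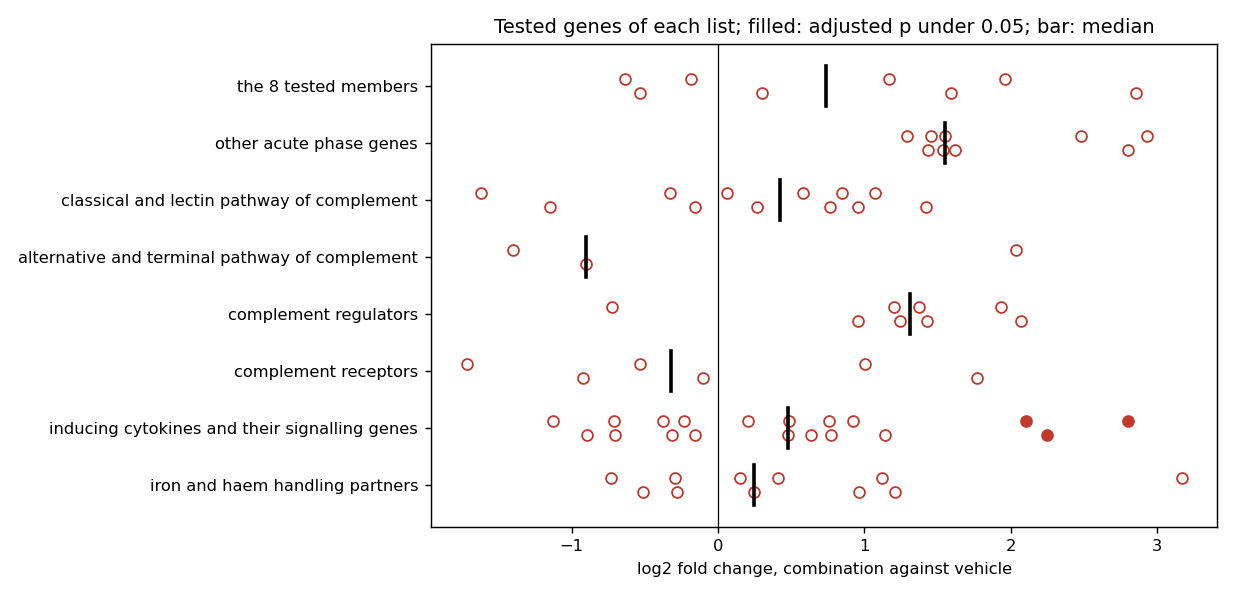
Log2 fold change of the combination against vehicle (horizontal axis) for each tested gene of the members and 7 functional lists, with filled points where the adjusted p is under 0.05 and a black bar at the median. The 3 filled points are the receptor genes Lifr, Il22ra1 and Il6ra. All 9 further acute phase genes lie above 0, where 52.4% of all tested genes do, but only 3 of the 9 did not overlap vehicle in CPM.

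Markers of other cells that can make these proteins moved between the libraries. The summed level of 9 airway markers was 14.2 to 44.9 CPM in vehicle, 53.1 to 121 CPM with anti-PD-1, 174 to 465 CPM with JQ1 and 289 to 605 CPM in the combination, and the club cell secretoglobin Scgb1a1 had 5.34 and 3.49 CPM in vehicle and 305 and 244 CPM in the combination. Combination replicate 2, the highest library for 5 members, had the lower airway sum of its group, at 289 against 605 CPM. Alveolar type 2 markers summed to 9301 and 11404 CPM in the 2 combination libraries and macrophage markers to 129 and 301 CPM, higher in replicate 2 in both cases, and the vehicle libraries had 158 and 190 CPM of the macrophage markers. Single alveolar type 2 markers moved both ways under that sum in the combination against vehicle: the transcription factor genes Nkx2-1 (-1.63, adjusted p = 0.0328) and Etv5 (-1.89, adjusted p = 0.0412) fell, and the protease gene Napsa rose (1.42, adjusted p = 0.0447). Of 5 tested fibroblast markers, Dcn (2.58, adjusted p = 0.0294) and Pdgfra (2.02, adjusted p = 0.0379) rose and Col1a1 fell (-1.92, adjusted p = 0.0178), and of 5 endothelial markers Pecam1 rose (1.74, adjusted p = 0.0467). Of 6 epithelial and tumour cell markers none was called there, where 4.8% of all genes were. Epcam (0.98, adjusted p = 0.0432) and Cdh1 (0.84, adjusted p = 0.0333) rose with JQ1 over both backgrounds, as did 4.22% of all genes. The part of these cells in the values of Orm1, Hp, Lrg1 and Lcn2 was not tested.

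Neutrophil granules hold lipocalin 2 and haptoglobin, and neutrophil markers, 11 in all of which 5 were tested, were low in every library. The sum was 2.41 to 2.90 CPM in vehicle, 5.05 to 13.0 CPM with JQ1, 3.07 to 3.09 CPM with anti-PD-1 and 3.95 to 12.6 CPM in the combination, with 2 to 4 of the 11 at 0 in each library. Ly6g, their defining surface gene, had 1 read in all, as had Camp and Ngp. Capture by probes can miss a gene, so these low counts do not show that neutrophils were absent. S100a8, a calprotectin chain abundant in neutrophils, had 2 and 5 counts in vehicle, 21 and 18 with JQ1, 3 and 0 with anti-PD-1 and 6 and 9 in the combination. In edgeR S100a8 rose with JQ1 over both backgrounds (3.46, SE 0.71, adjusted p = 0.0279). DESeq2 called no neutrophil marker there, where it called 18.7% of its genes. The S100a8 call rests on few reads and was not followed through the fits that left out a library. Its partner chain S100a9 was at 2.97 (SE 0.91, adjusted p = 0.0658). The library with the most Lcn2, Hp and Orm1, combination replicate 2, had 3.95 CPM of the neutrophil markers, and combination replicate 1 had 12.6 CPM. These sums rest on 24 and 30 reads. The part of neutrophils in the values of Lcn2 and Hp was not tested. Hepatocyte markers, of which 4 of 9 were tested, summed to 14.8 to 21.0 CPM in vehicle and 28.0 to 158 CPM in the treated libraries, most of it Apob. Against vehicle edgeR called none of the 4. DESeq2 called Apob higher with JQ1, anti-PD-1 and the combination, where it called 0.683%, 0.0839% and 14.4% of its genes. Ttr was at 4.44 with JQ1 and 3.76 with anti-PD-1, and Alb at 0.63 and 0.61, all without overlap. Of all genes 49.3% and 30.4% did not overlap there. Apoa1 was at 0.28 and -1.49 and overlapped. Alb, which defines liver, had 1.26 to 5.72 CPM, and Apoa2, Serpina1c and Cyp2e1 had no read. The same limit of capture holds for these genes, and the part of liver RNA in the members' values was not tested.

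**Figure D5:**
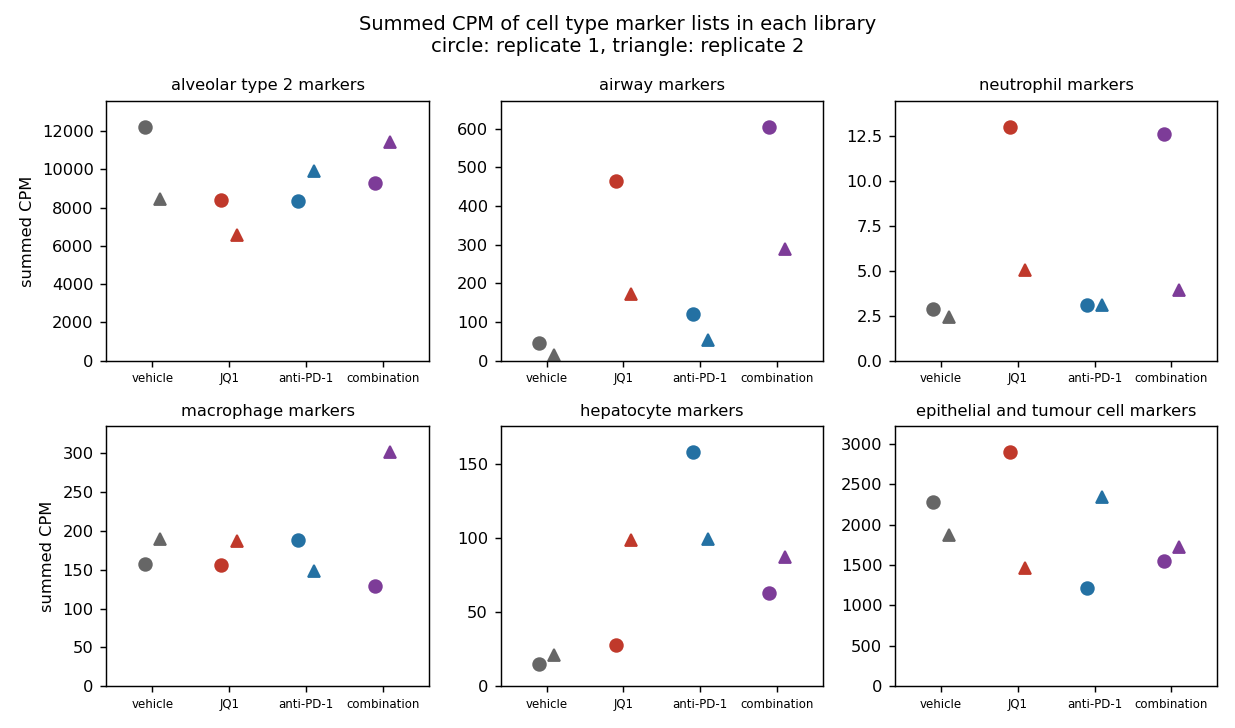
Summed CPM of 6 marker lists (vertical axis, linear from 0, scaled per list) in the 4 treatment groups, with a circle for replicate 1 and a triangle for replicate 2. Airway markers are highest in the combination and JQ1 libraries, and neutrophil markers stay at or under 13.0 CPM in every library.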

How the data were processed

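The authors deposited whole-number read counts per gene symbol for 8 libraries, with no normalization. Per the submitters' processing notes, bcl2fastq, STAR, featureCounts and DESeq2 were used on mm10/GRCm38; versions, annotation, strand and the treatment of reads shared between genes are not given in these sources. Per the labels' protocols, 50 ng of RNA from frozen tissue was captured with TruSeq RNA Access probes. The deposited normalized table was not used. Groups came from the treatment label, and replicates were numbered in accession order. The labels do not say that libraries come from separate animals, though those of 3 groups differ in sex. P-values thus reflect only the spread among the libraries, which may be technical in part.

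Counts of all genes passing filterByExpr were fitted together with edgeR 4.0.16 in R 4.3.3 (TMM factors, robust quasi-likelihood, 4 residual degrees of freedom, a common biological coefficient of variation of 0.332). P-values were adjusted by Benjamini-Hochberg over all 14085 genes within each of 7 contrasts and called at 0.05. A prior count of 0.125 entered the log2 fold changes, and CPM use the TMM-scaled totals. The smallest total, 2719816, makes 1 read worth 0.420 CPM. Alternatives were RLE factors, DESeq2 1.42.0, no filter on low counts, only the libraries compared, a sex term, and leaving out each library. A further one removed the 358 genes of the ribosomal RNA set, which included Gm42418 and Lars2. Shares called by DESeq2 are over the genes to which it gave an adjusted p. The code was tested on simulated data. Positions and exon overlaps come from GENCODE vM21 on GRCm38, and promoter sequences from RefSeq on GRCm38.p6.

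The members and the gene lists were chosen with earlier results of these data known. All members are named; from each functional list the rule named up to 4 genes with the smallest p in the combination against vehicle and up to 2 for JQ1 over both backgrounds, and let any called gene be named; marker lists are given by their sums and some single genes. Il6, Il1b, Cfd, Crp, Saa1, Saa2 and single markers were named after their values were seen. An item that the rule names is not reported here.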

Additional observations from a re-analysis of the deposited data

How the results depend on the processing

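Of the 56 fold changes of the members (8 genes in 7 contrasts), recomputed in 765 alternative values, 712 kept the sign of the reported value and 53 did not, none of them of the called one. Genes called over the whole table, in the order of JQ1, anti-PD-1 and then the combination each compared with vehicle, the combination compared with JQ1 and with anti-PD-1, JQ1 over both backgrounds and the interaction, were 0, 0, 676, 3, 596, 1165 and 0 as reported, 86, 11, 1665, 417, 1594, 2158 and 18 with DESeq2, and 250, 55, 1992, 672, 1920, 2527 and 138 with no filter on low counts. With only the libraries compared they were 1, 0, 245, 0 and 57 for the first 5, and with a sex term 339, 0 and 212 for the combination against vehicle, JQ1 and anti-PD-1. Members called were 0, 0, 0, 0, 1, 0 and 0 as reported, 1, 0, 2, 2, 1, 3 and 0 with DESeq2, and 2, 0, 2, 3, 3, 3 and 1 with no filter; for JQ1 over both backgrounds 1 was called with RLE factors, ribosomal RNA removed or a sex term, and for the combination against anti-PD-1 0 with a sex term or only the libraries compared. The cause of these differences was not tested. Leaving out 1 library at a time, the genes called ranged from 0 to 17 with JQ1, 0 to 1 with anti-PD-1 and 7 to 1115 with the combination against vehicle, 0 to 114 against JQ1, 3 to 967 against anti-PD-1, 17 to 1716 with JQ1 over both backgrounds and 0 to 1 for the interaction. Members called then ranged from 0 to 2 with the combination against vehicle and against anti-PD-1, and from 0 to 1 against JQ1 and with JQ1 over both backgrounds. Leaving out combination replicate 2 lowered the median of all genes by 0.126 against vehicle. The alternatives for the called pathway genes were added after their calls were seen. Single marker genes were not followed through the fits that left out a library. No paired analysis was possible because the labels carry no replicate numbers. Depth limits Cfb, Saa3 and Orm2 most, and with 2 libraries a group a difference that was not called is not shown to be absent.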
